A study of Mus musculus with 6 samples.

Results

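Tissue-dependent knockout effects are described here for 632 genes of 11986 that could be measured in both tissues. A gene was a member when its difference between knockout and wild type was at least 2-fold in opposite ways in fetal liver and bone marrow (61 genes), or at least 2-fold in fetal liver only (162 genes) or in bone marrow only (409 genes). The difference of the differences, called the interaction, had to reach 2-fold as well, and the 2 bone marrow pairs of arrays had to have the same sign. Members were thus chosen on the measured differences, so their counts and sizes are a description. For proportion, 257 genes differed at least 2-fold in the same direction in both tissues.

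The cells were mouse KSL cells, a bone marrow or fetal liver fraction that carries c-Kit and Sca-1, lacks lineage markers and holds the blood stem cells together with early progenitors. The fetal liver samples were Tie2-Cre with Tif1bw/w (wild type, 1 array) or Tif1bf/f (knockout, 1 array). The adult bone marrow samples were CreERT with Tif1bw/w (wild type) or Tif1bf/f (knockout), with 2 arrays for each genotype, and the labels of replicate 2 read Tif2b in place of Tif1b. All 6 carry Cre and are labelled C57BL6 or C57/BL6. Tie2-Cre acts in endothelial and blood-forming cells, whereas CreERT is a Cre that tamoxifen switches on. Tissue, Cre driver, slide and scan therefore cannot be told apart. The labels give no ages and do not say whether the replicates came from separate animals. The descriptions of the first bone marrow pair name Hp1aKD and Hp1gKD c-Kit+ Lineage- cells, against their own titles.

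Tif1b is the older name of Trim28. Its protein is a co-repressor that KRAB zinc finger proteins bring to DNA, where it recruits histone methyltransferase and HP1 proteins, and it silences endogenous retroviruses and genes near them. Fetal liver stem cells divide actively, while adult marrow stem cells are mostly resting, and both give rise to the myeloid, erythroid, megakaryocytic and lymphoid lineages.

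Each array was a 1-colour Agilent array of 55681 probes. A level here is the log2 of the deposited value minus the 75th percentile of its array, so that 0 is that percentile, and levels of different genes are not compared. Between 24383 and 31419 probes per array were well above background, and the lowest such level ran from -5.07 to -3.27. The 2 arrays of bone marrow pair 2 were brighter than the other 4, with a 75th percentile signal of 737 and 743 against 211 to 325. Where a group was well above background on none of its arrays, its level is not given and a fold is a lower bound against the lowest measurable level. Where it was so on 1 of its 2 arrays this is stated, and the pair differences use both. The precision of every value is limited by having 1 or 2 arrays in each group.

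Trim28 itself had a level of 5.97 in the fetal liver wild type and 1.67 in the knockout. In bone marrow the levels were 5.18 and 5.54 in the wild types and 1.28 and 0.75 in the knockouts. The knockout arrays were therefore 19.6-fold lower in fetal liver and 20.3-fold lower in bone marrow, and the interaction was 0.05 ± 0.54 (SE). Kit, the stem cell factor receptor used for the sort, lay between 4.16 and 4.50 on all 6 arrays. Ly6a, which encodes Sca-1, was at 0.31 and 0.77 in fetal liver and between 3.36 and 6.04 in bone marrow.

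The scanner file of bone marrow wild type replicate 1 holds other values than its column of the deposited table (r = 0.9585 across probes, against 1 for the other 5 arrays). In that scanner file Kit was at 1.30, Trim28 at 2.45, Hba-a2 at 10.36 and Pf4 at -6.30, while the column gave 4.16, 5.18, 0.72 and 6.52. The column was used. Without this array the opposite genes numbered 80, the fetal liver only genes 216 and the bone marrow only genes 379, of which 55, 102 and 287 were members above. Differences of bone marrow pair 2 do not involve it, while those of pair 1 and every bone marrow mean do.

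The question of the comparison is which genes respond to the loss of Trim28 differently in fetal and adult cells. Across the 11986 genes the difference in fetal liver correlated with that of bone marrow pair 1 at r = 0.347 and with pair 2 at r = 0.292, and the bone marrow pairs correlated with each other at r = 0.722. Genes are not independent replicates, and each of these differences rests on 1 slide. Between fetal liver and a bone marrow pair, 68 (pair 1) and 83 (pair 2) genes differed 2-fold in opposite ways and 301 and 217 in the same way. Between the bone marrow pairs the same counts were 21 and 572.

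**Figure D1:**
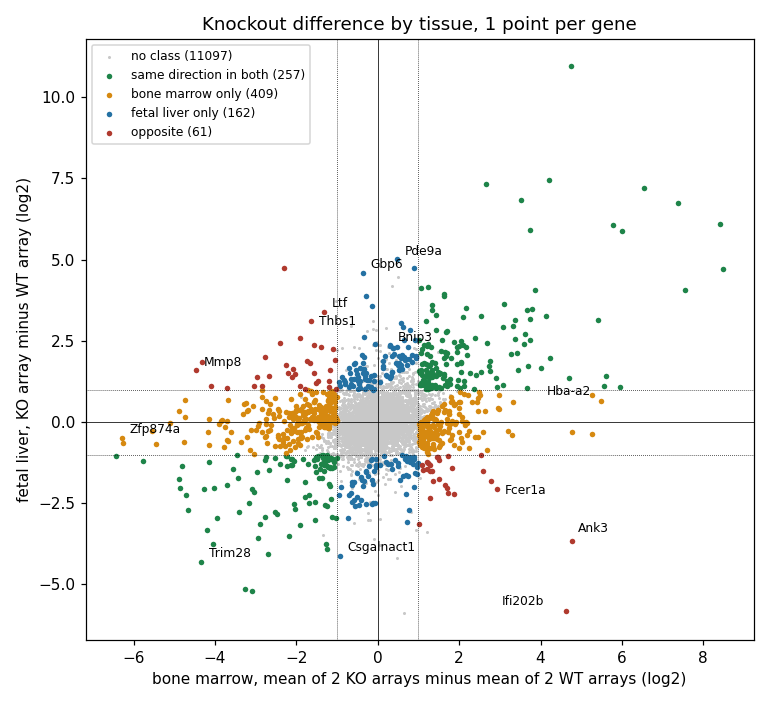
Each point is 1 of 11986 genes, placed by its knockout minus wild type difference (log2) in bone marrow on the x axis and in fetal liver on the y axis, with dotted lines at 2-fold and colours for the 4 classes. The 61 opposite genes fill the upper left and lower right corners, with Ifi202b and Ank3 farthest to the lower right.

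No gene passed the interaction test in limma with 4 group means, at an adjusted p of 0.05 over 13501 genes (0% of them called). The smallest adjusted p was 0.149, and 953 genes had an unadjusted p under 0.05. With the slide that each pair shares as a block, 375 genes passed (2.78%), 201 with an interaction above 0 and 174 with one below 0. Of the 375, 203 met a 2-fold rule but could be measured in 1 tissue alone, and 119 were members. The residual degrees of freedom were 2 without the block and 1 with it, all from bone marrow, and the lone fetal liver arrays were assumed to vary like those of bone marrow. The fit took levels below background as they stood, so for genes not measured in a group the interaction is also given with values raised to the lowest measurable level.

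Opposite genes made up 0.509% of the genes measured in both tissues, fetal liver only genes 1.35%, bone marrow only genes 3.41% and genes with the same direction 2.14%. With the slide block 39 of the 61 opposite genes passed the interaction test, 25 of the 162 fetal liver only genes and 55 of the 409 bone marrow only genes. Among the 257 genes of the same direction 9 passed. The rule used the same differences as this test, so nothing is read from these shares. With every value raised to its array's lowest measurable level, the differences that made a gene a member still reached 2-fold for 50 of the opposite, 134 of the fetal liver only and 392 of the bone marrow only genes.

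Of the 61 opposite genes 34 were higher in the knockout in fetal liver and lower in bone marrow. The other 27 ran the other way. The widest gap was that of Ifi202b, a member of the interferon-inducible p200 family known to differ strongly in level between inbred mouse strains. Its level was 0.57 in the fetal liver wild type and not well above background in the knockout, at least 14.7-fold lower. In bone marrow it was not well above background in either wild type and stood at -2.05 and -1.57 in the knockouts, at least 5.95-fold higher. The interaction was -10.45 ± 0.64 (limma adjusted p = 0.149, and 0.0195 with the slide block), and -6.45 with values raised to the lowest measurable level. A part played by strain background was not tested.

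Ank3, which encodes ankyrin-G, a scaffold that anchors membrane proteins to the cytoskeleton, had the same pattern. It was at -1.10 in the fetal liver wild type and not well above background in the knockout (at least 4.60-fold lower). In bone marrow only the knockouts, at -1.33 and -2.36, were above background (at least 5.80-fold higher). Ica1l, related to the islet autoantigen ICA1, was at 1.56 and -0.26 in fetal liver wild type and knockout. Its bone marrow levels were -2.26 and -1.80 in the wild types and 0.82 and 0.70 in the knockouts. That is 3.53-fold lower in fetal liver and 6.93-fold higher in bone marrow, with all 6 arrays above background. The interaction of Ica1l was -4.61 ± 0.49 (adjusted p = 0.177, and 0.0207 with the slide block).

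Mc3r, a melanocortin receptor, was at 1.33 and -0.90 in fetal liver wild type and knockout, and at -0.65 and -1.63 against 0.96 and 0.49 in bone marrow. Arsk, a lysosomal sulfatase, was 2.85-fold lower in fetal liver and 6.05-fold higher in bone marrow (2.62 and 2.57) by its brighter probe, but its 2 probes disagreed in the sign of the interaction. Gfra2, the neurturin receptor, was at -0.78 in the fetal liver wild type and not well above background in the knockout (at least 5.76-fold lower). Its bone marrow pairs had the same sign but unequal sizes, 0.28 and 1.77 (log2), and it missed the threshold also with the slide block (adjusted p = 0.0656).

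Among genes higher in the fetal liver knockout, Cd300lb, an activating receptor of myeloid cells, went from -2.31 to -0.46 in fetal liver. In bone marrow it was at -0.58 and -2.14 in the wild types and not well above background in the knockouts, at least 8.67-fold lower.

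Sh2d1b1 (EAT-2), an adaptor of SLAM family receptors, was 5.35-fold higher in the fetal liver knockout and at least 2.20-fold lower in the bone marrow knockouts, none of which was well above background. Dmkn, a secreted protein of the epidermis, was 2.16-fold higher in fetal liver and 17.2-fold lower in bone marrow, where the pair differences were -2.82 and -5.38. Dnmt3l, the catalytically inactive partner of the de novo DNA methyltransferases, was at -2.41 and -0.79 in fetal liver wild type and knockout. In bone marrow its wild types were at -2.06 and -2.21, and 1 of the 2 knockouts, at -3.93, was well above background. With the slide block Dnmt3l passed the interaction test (adjusted p = 0.0328), as did Cd300lb and Sh2d1b1, but not Dmkn (0.11).

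At the edge of the class, Klk1b22, a kallikrein, lay just inside with a fetal liver difference of -1.02 (the knockout was not well above background), and Fcgr3, an Fc receptor of myeloid cells, just outside with 0.99. Rab3gap2 and Hcar2 lay on either side of the fetal liver threshold, and Tox4 and Zfp867 of the bone marrow threshold, each with a difference that rounds to 1.

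**Figure D2:**
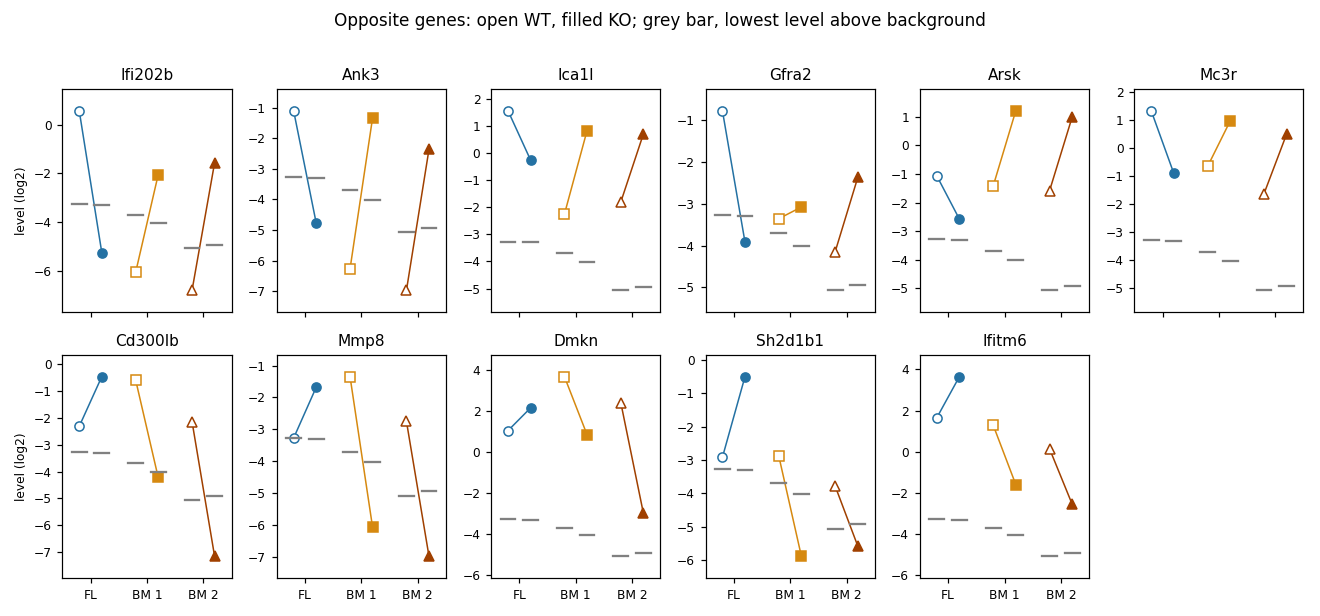
Levels (log2, relative to the 75th percentile of the array) of 11 of the opposite genes named, in fetal liver (FL) and bone marrow pairs 1 and 2 (BM 1, BM 2). They have the widest gaps in their direction among those named and still 2-fold over the lowest measurable level. Open symbols are wild type, filled symbols knockout, and grey bars mark the lowest level above background on that array; lines in the top row descend in FL and climb in BM, and the bottom row has the reverse.

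Of the 32 gene lists compared, neutrophil and granulocyte genes held the largest share of members: 15 of the 23 list genes measured in both tissues (65.2%) were members, against 632 of 11986 (5.27%) over all genes. Over the 25 genes tested the median knockout difference was 0.47 in fetal liver, -1.75 in bone marrow pair 1 and -1.45 in pair 2, against -0.07, 0.02 and -0.09 over all 13501 genes. The interaction was above 0 for 24 of the 25. Of the members 3 were opposite and higher in the fetal liver knockout (Mmp8, Ltf and Ngp), 2 were fetal liver only and higher (Lyz2 and Retnlg) and 10 were bone marrow only and lower. Another 5 were lower in both tissues, Elane among them. With the slide block 7 of the 25 passed the interaction test, all above 0. Over all 13501 genes tested 375 passed (2.78%), 201 of them above 0. The gene lists were written with earlier results of these data known, so these counts are a description.

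Promoters are shown for Ltf (lactoferrin) and Mmp8 (neutrophil collagenase), the neutrophil genes with the widest gaps. They are RefSeq windows from 250 bases before to 50 after the start, on the coding strand, in build GRCm38.p6. Ltf lies at chr9:111019042-111019341 (+) and Mmp8 at chr9:7558179-7558478 (+). Capitals mark each match to AGGAAG on either strand, the core letters that ETS factors such as PU.1 bind.
Ltf: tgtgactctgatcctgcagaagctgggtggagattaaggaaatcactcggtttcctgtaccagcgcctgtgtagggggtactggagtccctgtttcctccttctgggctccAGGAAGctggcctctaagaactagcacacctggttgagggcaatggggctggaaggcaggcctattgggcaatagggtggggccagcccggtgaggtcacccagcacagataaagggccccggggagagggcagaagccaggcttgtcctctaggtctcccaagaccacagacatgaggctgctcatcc
Mmp8: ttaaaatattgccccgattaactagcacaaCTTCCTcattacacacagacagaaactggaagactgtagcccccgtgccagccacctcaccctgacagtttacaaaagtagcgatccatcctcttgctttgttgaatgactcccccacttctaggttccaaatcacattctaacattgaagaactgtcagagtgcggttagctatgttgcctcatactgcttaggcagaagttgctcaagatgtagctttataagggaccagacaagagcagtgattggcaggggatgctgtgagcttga
Each window held 1 match, on the printed strand for Ltf and on the other for Mmp8. A match was present in 20 of the 23 neutrophil list genes with an entry (87.0%), against 4109 of 10803 genes tested (38.0%). In the other lists examined the AGGAAG share ran from 31.8% (interferon-stimulated) to 52.9% (megakaryocyte and platelet). It was 40% for monocyte, macrophage and dendritic genes. The letters TTNNGNAA, bound by C/EBP factors, were in 15 of the 23 (65.2%) against 37.1%. In the other lists examined their share ran from 33.3% (erythroid and globin) to 68.2% (interferon-stimulated). Among the 34 opposite genes higher in the fetal liver knockout, 25 had an entry, and AGGAAG was in 15 of these (60.0%). In the other classes and directions, with the genes of the same direction, its share ran from 32.7% to 49.2%. A match is a description of the sequence, and no binding was measured.

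Ltf was at -1.38 and 2.02 in fetal liver wild type and knockout, 10.6-fold higher. In bone marrow it was at -1.12 and -0.81 in the wild types and -2.09 and -2.47 in the knockouts, 2.49-fold lower. The interaction was 4.72 ± 0.49 (adjusted p = 0.177, and 0.0212 with the slide block). Mmp8 was not well above background in the fetal liver wild type and at -1.68 in the knockout (at least 3.01-fold higher). Its bone marrow wild types were at -1.35 and -2.75 and the knockouts not well above background (at least 5.37-fold lower). Ngp, a granule protein, was at least 2.87-fold higher in the fetal liver knockout and 3.36-fold lower in the bone marrow knockouts (-2.46 and -1.04), and missed the threshold with the slide block (adjusted p = 0.0788).

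Ifitm6, an interferon-induced transmembrane protein family member that is on none of the lists, was at 1.65 and 3.65 in fetal liver. In bone marrow it was at 1.29 and 0.14 in the wild types and -1.59 and -2.55 in the knockouts. All arrays were above background and the interaction was 4.78 ± 0.91 (adjusted p = 0.258, and 0.0195 with the slide block).

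The bone marrow only genes of the list include the primary granule enzymes Mpo and Prtn3, and also Cebpe, S100a9 and Lcn2. Mpo, myeloperoxidase, was at 10.83 and 10.88 in fetal liver. The bone marrow levels were 10.18 and 9.21 in the wild types and 7.99 and 4.0 in the knockouts, a 13-fold lower mean with pair differences of -2.19 and -5.21. Cebpe, a transcription factor of granulocyte maturation, was 1.4-fold higher in the fetal liver knockout and 8.45-fold lower in bone marrow (-3.29 and -2.87). Prtn3 (proteinase 3) was 10.4-fold lower in bone marrow (-3.25 and -3.49), S100a9 (a calprotectin subunit) 9.28-fold (-3.45 and -2.98) and Lcn2 (lipocalin 2) 7.16-fold (-2.49 and -3.19). The fetal liver folds of these genes were 1.53 (lower), 1.37 (lower) and 1.70 (higher). Elane, neutrophil elastase, was lower in both tissues, 4.16-fold in fetal liver and 19.3-fold in bone marrow (-4.67 and -3.88).

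Lyz2, lysozyme, was at 1.22 and 3.26 in fetal liver, with pair differences of only 0.14 and 0.22 in bone marrow. Retnlg, a resistin-like protein of granulocytes, was at least 2.36-fold higher in the fetal liver knockout, where the wild type was not well above background, and differed by -0.45 and -0.23 in bone marrow. The summed level of the whole list was 12.08 and 11.99 in fetal liver wild type and knockout. In bone marrow it was 11.37 and 10.50 in the wild types and 9.34 and 7.84 in the knockouts. In bulk samples fewer cells of a type and less RNA per cell cannot be told apart.

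Monocyte, macrophage and dendritic cell genes were members in 11 of 25 cases (44.0%, against 5.27% over all genes). Their median difference over the 26 tested was -0.07 in fetal liver and -1.45 and -0.96 in the bone marrow pairs, and 22 of the 26 interactions were above 0. Of these members 8 were bone marrow only and lower, 2 opposite and 1 fetal liver only and lower. With the slide block 6 of the 26 passed, all above 0, against 2.78% of all genes tested. The summed level of the list was 8.87 and 8.85 in fetal liver wild type and knockout, 9.37 and 8.82 in the bone marrow wild types and 8.31 and 8.56 in the knockouts.

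F13a1, the A subunit of coagulation factor XIII and a monocyte gene, was at 4.48 and 4.82 in fetal liver. Bone marrow wild types were at 6.60 and 5.35 and knockouts at 2.77 and -0.61, 29.7-fold lower. Aoah, an enzyme that inactivates endotoxin, was at 1.64 and 0.95 in fetal liver, and at -0.62 and -0.96 in the bone marrow wild types but not well above background in the knockouts (at least 12.8-fold lower). Mpeg1, perforin-2, was 27.1-fold lower in bone marrow (-5.03 and -4.49) and 1.53-fold lower in fetal liver, with an interaction of 4.15 ± 0.63 (adjusted p = 0.234, and 0.0212 with the slide block).

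Among the other members of the list, Irf8, a transcription factor of monocyte and dendritic fate, was 17.6-fold lower in bone marrow (-4.57 and -3.71) and 1.62-fold lower in fetal liver. Csf1r, the receptor of the macrophage growth factor, was 8.02-fold lower in bone marrow (-3.22 and -2.79) and 1.18-fold lower in fetal liver. Flt3, a receptor tyrosine kinase of multipotent progenitors, was 3.62-fold lower in bone marrow (-1.75 and -1.97) and 1.03-fold lower in fetal liver. Other regulators and receptors on the list were in no class: the bone marrow pair differences were 0.70 and -0.01 for the chemokine receptor gene Ccr2, -1.15 and 0.14 for the transcription factor gene Klf4, 0.18 and 0.07 for Tlr7 and 0.02 and 0.05 for Tlr9, both receptors of nucleic acids. Cd14, the co-receptor for endotoxin, was opposite: 2.65-fold higher in the fetal liver knockout and 6.34-fold lower in bone marrow (-2.44 and -2.89). Cybb, a subunit of the phagocyte oxidase, was opposite by its mean, but pair 2 alone differed by only -0.12, and 1 of the 2 bone marrow knockouts was well above background. H2-Eb1, a class II chain, was the fetal liver only member, at 0.72 and -1.08 there.

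**Figure D3:**
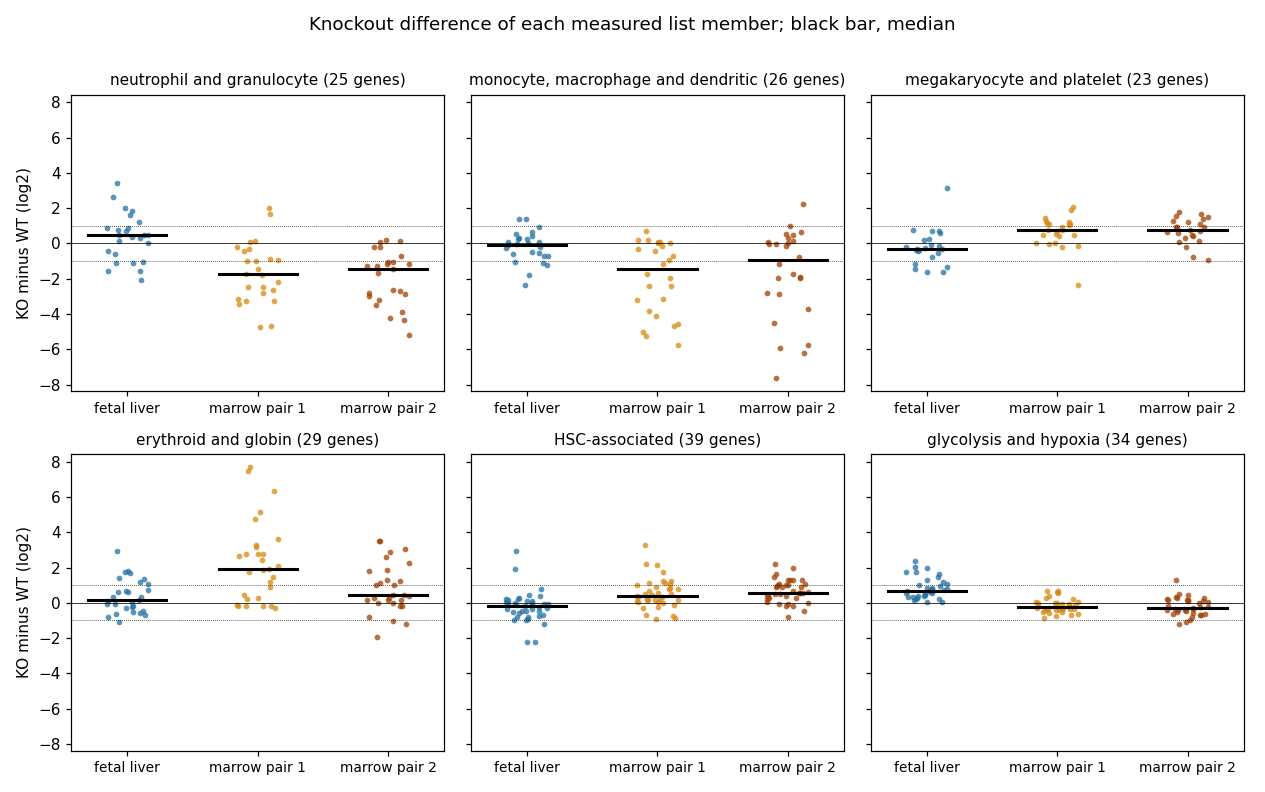
Knockout minus wild type difference (log2, y axis) of each tested gene of 6 lists in fetal liver and in each bone marrow pair; points are genes, black bars medians and dotted lines 2-fold. Neutrophil medians lie at 0.47 in fetal liver and at -1.75 and -1.45 in bone marrow, and all 34 glycolysis and hypoxia genes lie above 0 in fetal liver.

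Megakaryocyte and platelet genes had the reverse pattern, with 10 members of 22 measured in both tissues (45.5%, against 5.27% over all genes). The median difference of the 23 tested was -0.29 in fetal liver and 0.74 and 0.77 in the bone marrow pairs, and 20 interactions were below 0. Treml1, a receptor of platelet granules, was at 2.87 and 1.71 in fetal liver. The bone marrow wild types were at 3.10 and 3.16 and the knockouts at 4.55 and 4.73. Treml1 was 2.23-fold lower in fetal liver and 2.85-fold higher in bone marrow, with an interaction of -2.67 ± 0.43 (adjusted p = 0.234, and 0.0311 with the slide block).

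Gp1ba, a subunit of the von Willebrand factor receptor, was 2.75-fold lower in fetal liver and 2.14-fold higher in bone marrow (1.27 and 0.93). Pf4, platelet factor 4, was at 2.69 and 1.07 in fetal liver and went with differences of 0.72 and 1.21 in bone marrow, just under the threshold in the mean. Gp5 and Mmrn1, a platelet glycoprotein and multimerin 1, were bone marrow only and 3.29-fold (2.07 and 1.36) and 2.74-fold (1.12 and 1.79) higher. Thbs1, thrombospondin 1, ran against the rest of the list: it was at 0.32 and 3.44 in fetal liver, 8.68-fold higher, and 3.11-fold lower in bone marrow (-2.33 and -0.94). The summed level of the list was 8.04 and 8.14 in fetal liver, 8.27 and 8.14 in the bone marrow wild types and 8.97 and 8.96 in the knockouts.

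Of the HSC-associated genes 7 of 35 measured in both tissues were members (20.0%, against 5.27% over all genes). For this list 33 of the 39 interactions were below 0. The median difference was -0.20 in fetal liver and 0.37 and 0.58 in bone marrow. Slamf1 (CD150), a surface marker of long-term stem cells, was at -2.23 in the fetal liver wild type and not well above background in the knockout (at least 2.11-fold lower). In bone marrow its levels were -0.49 and 0.22 in the wild types and 1.64 and 1.53 in the knockouts, 3.30-fold higher. Its interaction was -3.92 ± 0.57 (adjusted p = 0.232, and 0.0328 with the slide block), and -2.80 with values raised to the lowest measurable level. It was the single gene of the list's 39 to pass with the block, against 2.78% of all genes tested.

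Mycn, a proto-oncogene with a role in stem cell growth, was at 3.46 and 3.45 in fetal liver. Adult wild types were at 0.96 and 1.84 and adult knockouts at 3.16 and 3.50, 3.81-fold higher. Mllt3, a chromatin reader linked to stem cell maintenance, was 2.88-fold higher in bone marrow (1.77 and 1.28) and Esam, an adhesion molecule of stem cells, 2.14-fold (1.12 and 1.07), and their fetal liver differences were -0.14 and -0.59. Tek, the angiopoietin receptor, was lower in the fetal liver knockout, where it was not well above background, but by a bound of only 1.14-fold. Its promoter is the one that drives Tie2-Cre. Sult1a1, a sulfotransferase, was higher there with a bound of 1.93-fold, and 1 of its 2 probes had the other sign. Kit and Hlf, a stem cell transcription factor, were in no class.

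Mast cell and basophil genes were members in 6 of 15 cases (40.0%, against 5.27% over all genes). Fcer1a, the alpha chain of the IgE receptor, was at -2.77 in the fetal liver wild type and not well above background in the knockout, a bound of 1.45-fold. Its bone marrow levels were 2.71 and 2.13 in the wild types and 5.86 and 4.83 in the knockouts, 7.58-fold higher, with an interaction of -4.99 ± 0.76 (adjusted p = 0.234, and 0.0207 with the slide block). With values raised to the lowest measurable level the interaction was -3.46, and the fetal liver difference no longer reached 2-fold. Cpa3, mast cell carboxypeptidase, was 6.45-fold higher in bone marrow (3.70 and 1.68). Ms4a2, the beta chain of the IgE receptor, was well above background in 1 of the 2 bone marrow wild types, and its pair differences were 3.02 and 1.75. In fetal liver these genes were 1.81-fold and 1.38-fold lower. Mcpt8 and Prss34, proteases of basophils, were bone marrow only and lower in the mean, with unequal pairs (-0.17 and -2.11 for Mcpt8, -0.63 and -1.66 for Prss34).

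Erythroid and globin genes were members in 6 of 23 cases (26.1%, against 5.27% over all genes). The medians were 0.16 in fetal liver, 1.92 in bone marrow pair 1 and 0.46 in pair 2, so the bone marrow pairs were unequal. Hba-a2, an alpha globin, was at 9.19 and 9.83 in fetal liver. The adult wild types were at 0.72 and 0.46 and the adult knockouts at 8.21 and 3.97. Hba-a1 was 2.70-fold higher in fetal liver and 48.5-fold higher in bone marrow (7.68 and 3.52), so the near-identical alpha globin genes fall into different classes by their fetal liver size alone, and their probes may not tell them apart. In the scanner file of bone marrow wild type replicate 1 Hba-a2 was at 10.36, above the knockout of that pair. With that file in place of the column, the interaction of Hba-a1 took the other sign, at 1.08. Klf1, an erythroid transcription factor, was 3.74-fold higher in bone marrow (2.77 and 1.04) and Rhd, a blood group protein, 4.73-fold (2.67 and 1.82). The fetal liver differences of these genes were -0.07 and -0.81. Car2 was the list's opposite member, with a fetal liver difference of -1.07 and bone marrow pair differences of 1.77 and 1.15. The summed level of the list was 10.22 and 10.94 in fetal liver, 7.93 and 7.73 in the bone marrow wild types, and 9.84 and 8.35 in the knockouts.

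Glycolysis and hypoxia genes stood apart in fetal liver. All 34 tested were higher in the fetal liver knockout than in the wild type, with a median difference of 0.70, and 10 of the 34 were higher in bone marrow, where the medians were -0.23 and -0.27. Over all genes 5670 of 13501 were higher in the fetal liver knockout. The interaction was above 0 for 31 of the 34. Fetal liver only members, all higher in the knockout, were 6 (17.6%): Bnip3, Egln3, Ddit4, Slc2a3, Slc16a3 and Ankrd37. Over all genes measured in both tissues 0.793% were of that class and direction. The hypoxia-inducible factors are known to act on these genes through sites with the letters ACGTG.

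Promoters of Bnip3 and Egln3 are shown as the members of this list with the widest gaps, in the same RefSeq windows and build. Bnip3 lies at chr7:138909457-138909756 (-) and Egln3 at chr12:54203825-54204124 (-). Capitals mark each match to ACGTG on either strand.
Bnip3: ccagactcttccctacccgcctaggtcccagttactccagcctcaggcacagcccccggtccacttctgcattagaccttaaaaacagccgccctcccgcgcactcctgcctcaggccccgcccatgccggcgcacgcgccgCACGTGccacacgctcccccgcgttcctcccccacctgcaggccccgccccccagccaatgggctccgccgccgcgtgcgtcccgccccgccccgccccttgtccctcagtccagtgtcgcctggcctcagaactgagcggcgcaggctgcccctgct
Egln3: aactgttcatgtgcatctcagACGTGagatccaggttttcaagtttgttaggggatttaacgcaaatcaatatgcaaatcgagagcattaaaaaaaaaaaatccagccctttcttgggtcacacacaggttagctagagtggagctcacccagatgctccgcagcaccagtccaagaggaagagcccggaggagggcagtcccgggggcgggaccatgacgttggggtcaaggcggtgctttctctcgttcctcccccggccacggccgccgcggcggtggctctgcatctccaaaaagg
Bnip3 held 2 overlapping matches, 1 on each strand, and Egln3 held 1 on the printed strand. Of the 31 list genes with an entry 23 held the letters (74.2%), against 3062 of 10803 genes tested (28.3%). Among all 81 fetal liver only genes with an entry that were higher in the knockout, 20 held them (24.7%).

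Bnip3, a mitochondrial protein of mitophagy, was at 3.94 and 6.29 in fetal liver, 5.10-fold higher in the knockout. Its bone marrow wild types were at 3.46 and 2.90 and its knockouts at 3.75 and 3.22, and its interaction was 2.05 ± 0.59 (adjusted p = 0.456, and 0.0482 with the slide block). Egln3, an oxygen-sensing prolyl hydroxylase, was at 1.88 and 3.49 in fetal liver. Adult levels were 2.49 and 2.02 in the wild types and 2.11 and 1.32 in the knockouts. Ddit4, an inhibitor of mTORC1 signalling, was 3.33-fold higher in the fetal liver knockout and differed by 0.02 and 0.23 in bone marrow.

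The lactate transporter Slc16a3 was 3.89-fold higher in the fetal liver knockout, the glucose transporter Slc2a3 3.35-fold and Ankrd37, a hypoxia-induced ankyrin repeat protein, 2.74-fold. In bone marrow these genes were 1.48-fold and 1.41-fold higher and 1.06-fold lower. Bnip3 was the single gene of the list's 34 to pass with the slide block, against 2.78% of all genes tested. The fetal liver values are of 1 knockout and 1 wild type array, so the spread between fetal samples is unknown, and the part of sample handling was not tested.

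Other fetal liver only genes were chosen by the size of the interaction or as members of a gene list. Of those below, Cdkn1a, Gadd45a, Socs3, Cd5 and Nr1i3 were taken as list members. Gbp6, an interferon-induced guanylate-binding protein, was not well above background in the fetal liver wild type and at -0.85 in the knockout (at least 5.35-fold higher). It was at -1.0 and -1.31 in the bone marrow wild types and -1.60 and -1.45 in the knockouts. Its interaction was 4.97 ± 0.46 (adjusted p = 0.149, and 0.0207 with the slide block), and 2.79 with values raised to the lowest measurable level. Pde9a, a cGMP phosphodiesterase, was at least 7.87-fold higher in fetal liver. Raet1e, a stress-induced ligand of the NKG2D receptor, was at -1.55 and 3.21 in fetal liver, 27.0-fold higher, and 1.84-fold higher in bone marrow (1.05 and 0.71), so that it is a member by size and not by direction.

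Spin2-ps1 was at least 2.58-fold and Gm2837 at least 3.48-fold higher in the fetal liver knockout, and 1 of 3 probes of Gm2837 had the other sign. Cdkn1a (p21), an inhibitor of cell cycle kinases, was at 0.36 and 2.17 in fetal liver, 3.51-fold higher. Adult levels were 2.56 and 2.83 in the wild types and 2.20 and 2.45 in the knockouts. Its interaction was 2.18 ± 0.47 (adjusted p = 0.286, and 0.0429 with the slide block). Gadd45a, a DNA damage response gene, was 2.42-fold higher in fetal liver, Socs3, an inhibitor of cytokine signalling, 2.57-fold and Cd5, a lymphocyte receptor, 2.25-fold. Nr1i3, the nuclear receptor CAR, was higher by a bound of 1.22-fold.

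Among the 67 fetal liver only genes lower in the knockout, Rab19, a small GTPase, was at -1.11 in the wild type and not well above background in the knockout (at least 4.58-fold lower), and differed by 0.52 and 0.91 in bone marrow. Csgalnact1, an enzyme of chondroitin sulfate synthesis, was at least 4.38-fold lower and differed by -1.04 and -0.82 in bone marrow. Aqp1, a water channel, was 4.04-fold lower in fetal liver and 1.86-fold higher in bone marrow (1.35 and 0.44). Trpc6, a cation channel, was 2.95-fold lower in fetal liver and 1.89-fold higher in bone marrow (0.86 and 0.97). Mageb1, a member of the MAGE cancer-testis family, was at -0.60 in the wild type and at least 5.65-fold lower in the fetal liver knockout, and differed by -0.07 and -0.05 in bone marrow, where 1 of the 2 knockouts was well above background.

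Among the 243 bone marrow only genes lower in the knockout, Zfp874a, a zinc finger gene, was at 0.23 and 0.29 in the bone marrow wild types and not well above background in the knockouts, at least 26.6-fold lower. In fetal liver it was at -1.36 and -1.84, and its interaction was 5.82 ± 0.49 (adjusted p = 0.149, and 0.0195 with the slide block), and 4.25 with values raised to the lowest measurable level. Celsr3, an adhesion receptor of the cadherin family, was at -0.56 and -1.35 in the bone marrow wild types and not well above background in the knockouts (at least 11.4-fold lower), and at 0.35 and 0.08 in fetal liver. Ascl2, an imprinted transcription factor gene, was 6.38-fold lower in bone marrow (-2.53 and -2.82) and 1.30-fold higher in fetal liver.

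Igsf6, a receptor of myeloid cells, was 34.5-fold lower in bone marrow (-4.23 and -5.98). Trem3, another such receptor, had pair differences of -3.20 and -6.28, and 1 of its 2 bone marrow knockouts was well above background. Tctex1d1, related to dynein light chains, was at 2.02 and 0.79 in the bone marrow wild types, and in the knockouts at -2.92 and not well above background. Pmaip1 (Noxa), a cell death gene, was 3.46-fold lower in bone marrow (-1.74 and -1.84) and 1.62-fold higher in fetal liver. Rag2, of antigen receptor recombination, was 3.89-fold lower in bone marrow (-2.10 and -1.82). Flt1, a receptor of VEGF, and Gzma, a granzyme, were each well above background in 1 of the 2 bone marrow knockouts, with pair differences of -1.64 and -1.50 for Flt1 and -1.23 and -2.53 for Gzma. The fetal liver folds of Rag2, Flt1 and Gzma lay between 1.24 and 1.55.

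Among the 166 bone marrow only genes higher in the knockout, Pakap was at -3.43 and -1.79 in the bone marrow wild types and 2.70 and 2.61 in the knockouts, and at -1.43 and -0.58 in fetal liver. Hddc3, a nucleotide hydrolase, was at -1.21 and -1.83 in the wild types and 2.02 and 1.52 in the knockouts of bone marrow, 9.80-fold higher. Its fetal liver levels were 1.27 and 0.87, and its interaction -3.70 ± 0.60 (adjusted p = 0.234, and 0.0207 with the slide block). Pdgfrb, a growth factor receptor of stromal cells, was 5.0-fold higher in bone marrow (2.64 and 2.00) and Gzmb, a granzyme, 3.96-fold (2.49 and 1.48). Fbp1, an enzyme of gluconeogenesis, was 3.38-fold higher, over 2-fold in both pairs, and Hnf4a, a liver transcription factor, 2.68-fold (2.01 and 0.84). Elovl2, a fatty acid elongase, was at least 3.59-fold higher.

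Stfa1 and Cstdc5, stefins of 1 gene cluster, were at 9.65 and 9.64 in the fetal liver wild type and at 9.27 and 9.33 in the knockout. In bone marrow they were above background in only 1 of 2 wild types (-2.21 and -1.74) and in both knockouts (1.71 and 0.10 for Stfa1, 1.38 and 0.15 for Cstdc5). Members of this family are near-identical in sequence, and their probes may not tell them apart. With the scanner file of bone marrow wild type replicate 1 in place of its column, both interactions took the other sign, at 0.91 for Stfa1 and 1.28 for Cstdc5.

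**Figure D4:**
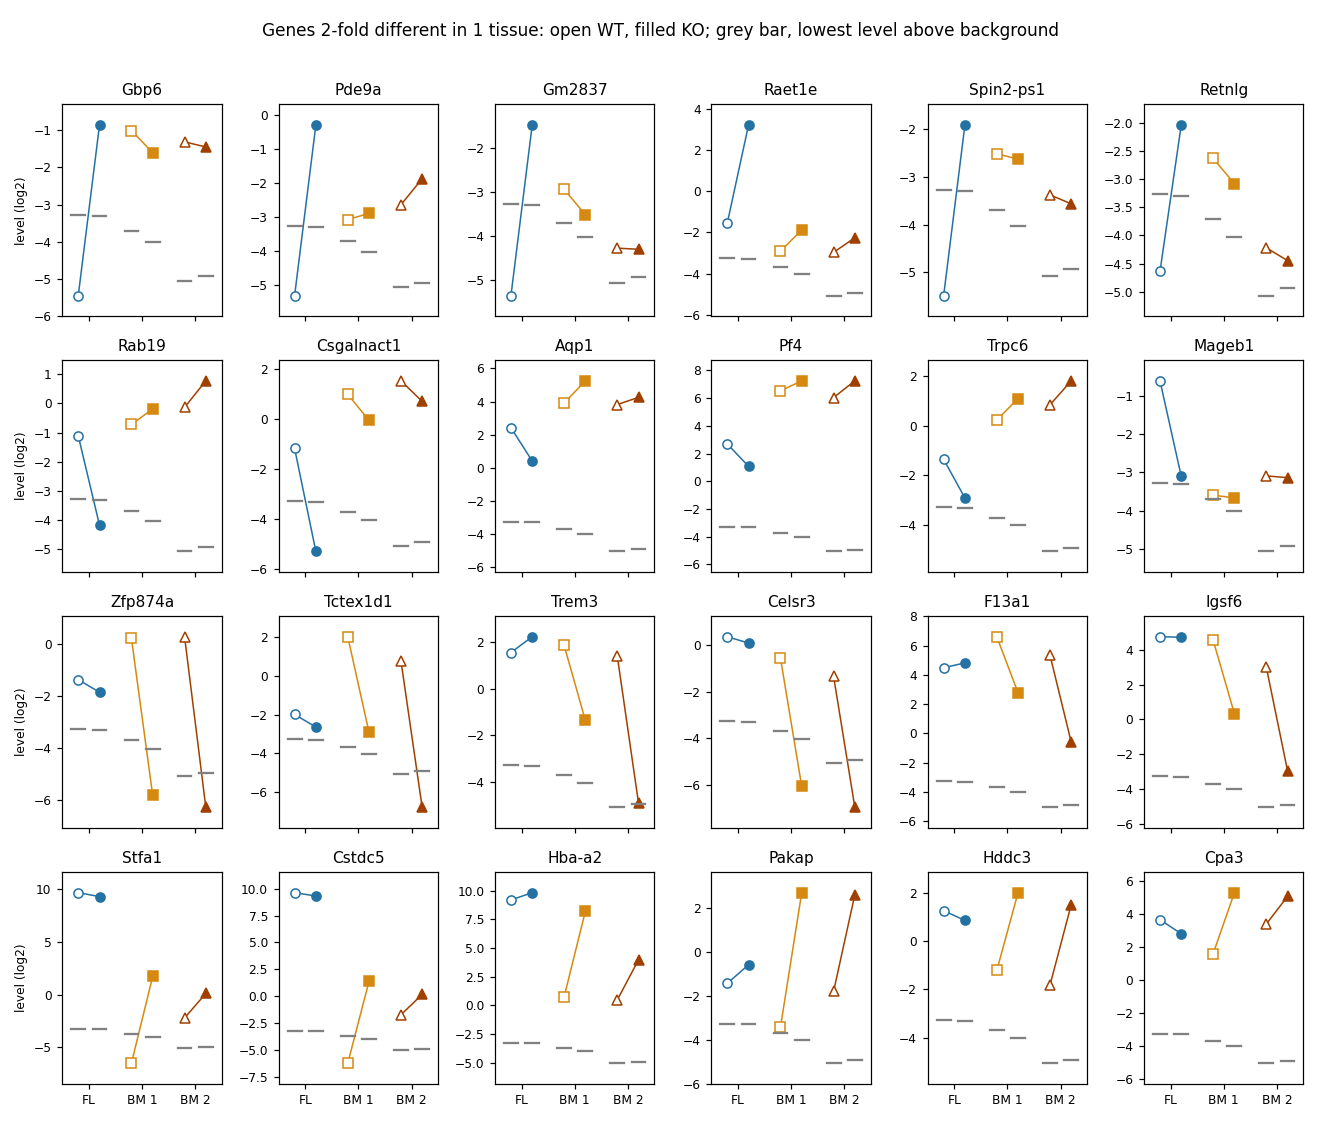
Levels (log2, relative to the 75th percentile of the array) of the 24 genes with the widest gaps among those 2-fold different in 1 tissue only; symbols and grey bars as in the plot of the opposite genes. The upper 12 genes are split by genotype in fetal liver (FL) and the lower 12 in bone marrow (BM 1 and BM 2), for example Zfp874a from 0.23 and 0.29 to below the grey bars.

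Some genes with wide gaps are not members because of the sign rule. Of 20 B lymphoid genes tested 11 were at least 2-fold lower in the fetal liver knockout, but in 8 of these the bone marrow pairs had opposite signs, and the list's bone marrow medians were -0.74 and 0.68. Vpreb3, a surrogate light chain gene, was at 2.28 in the fetal liver wild type and at least 48.1-fold lower in the knockout, and differed by -0.56 and 1.84 in bone marrow. Rag1, the partner of Rag2, was at least 7.25-fold lower in fetal liver, and was not above background throughout either bone marrow group. The summed level of the list was 5.96 and 5.66 in fetal liver, 7.51 and 6.67 in the bone marrow wild types and 6.28 and 6.60 in the knockouts. Vpreb3, Rag1 and the genes of the next paragraph were singled out after their values were seen.

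Genes measured in 1 tissue alone, 716 in fetal liver and 799 in bone marrow, were counted apart. Of these 266 met the 2-fold rule for fetal liver only, 177 that for bone marrow only, 35 that for opposite differences and 65 that for the same direction. Gbp2b, an interferon-induced guanylate-binding protein, was not well above background in fetal liver or in the bone marrow wild types, and stood at 0.13 and 0.43 in the bone marrow knockouts, at least 25.4-fold higher. Ifi44l, another interferon-induced gene, was at -0.02 and 0.69 in the bone marrow knockouts alone, at least 26.3-fold higher. Their interactions were -6.90 and -6.79, and -4.70 and -4.75 with values raised to the lowest measurable level. Both genes entered the test only through the bone marrow knockouts, the group where they are high. A p-value could therefore not support a tissue difference, and none is given. The interferon-stimulated list as a whole had 1 member among 22 genes, Gbp6 (4.55%, against 5.27% over all genes). Its median differences were 0.41 in fetal liver and 0.46 and -0.05 in bone marrow.

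Lists of basic cell functions held no member: none of 30 oxidative phosphorylation genes, 34 ribosome biogenesis genes, 31 S phase and DNA replication genes or 29 G2 and mitosis genes measured in both tissues. Over all genes 5.27% were members. Their median differences lay between -0.34 and -0.11 in fetal liver and between -0.70 and 0.22 in the bone marrow pairs. The TIF1, HP1 and KRAB repression list, 21 genes with Trim28 itself, had no member either. Hepatocyte genes had medians of -1.46 in fetal liver and -0.27 and -0.21 in bone marrow, and their summed level was 7.91 and 5.89 in fetal liver wild type and knockout, 7.02 and 6.60 in the bone marrow wild types and 5.59 and 5.42 in the knockouts. Eosinophil genes had 6 of 11 lower in both tissues and none in a tissue-dependent class. The part of these other cell types in the results was not tested.

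Members lay next to each other on the chromosomes in 24 runs of the same class and direction, which held 50 of the 632 genes, where neighbours are tested genes adjacent in RefSeq order. Runs among other genes were not counted, so this number cannot be called high or low. The longest were Ccl9, Ccl6 and Ccl3, chemokines, and Fcgr2b, Fcgr4 and Fcgr3, Fc receptors, both bone marrow only and lower. S100a8 with S100a9 and Lyz1 with Lyz2 were further runs. Several runs are of gene families whose probes may cross-hybridise. Of the members with more than 1 measured probe, the probes disagreed in sign for 1 of 8 opposite genes, 10 of 47 fetal liver only genes and 15 of 92 bone marrow only genes.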

How the data were processed

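RNA from sorted KSL cells of 6 samples was hybridised to 1-colour (Cy3) Agilent arrays from 10 ng of total RNA, per the labels' protocols. The submitters' processing notes name Agilent Feature Extraction, version 10.7.1.1. The deposited value table holds linear ratios, each probe's signal over a constant of its array, and the authors' steps behind it are not given in the sources used here. The scanner files hold deposited intensity values per spot, background-subtracted (processed signal) or raw (median spot and local background), per the file headers. The log2 of each ratio minus the column's 75th percentile was used here.

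Of 55681 probes 26762 matched 1 gene by RefSeq accession (20284 genes), with names from a table of assembly GRCm38.p6, while the scanner grid was annotated on another build, so no probe coordinates are printed and those of the promoters are RefSeq's. A gene was its brightest probe, and 13501 genes with a probe well above background (scanner flag) on all arrays of at least 1 of the 4 groups were tested. For bone marrow wild type replicate 1, whose scanner file and column differ, a level of -3.7 stood in for the flag (it matches 99.1% of the flags of the array's partner).

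The interaction was fitted with limma 3.58.1 in R 4.3.3 (lmFit and eBayes, 1 mean per group, Benjamini-Hochberg). The code was run on simulated arrays with independent noise of the same size for every probe. That does not check the test where arrays share a slide or genes vary unequally. Where nothing says that arrays came from separate animals, p-values measure only the spread between these samples. Bone marrow arrays of the same number share a slide, per the file headers, and their deviations correlate across genes at r = 0.568, so the slide was also fitted as a block. Classes are counts by fold, with no test. The genes, gene lists and members were chosen with earlier results of these data known. Named are Trim28, Kit and Ly6a, the 6 genes of widest interaction per class and direction whose differences still reach 2-fold over the lowest measurable level, the genes at the thresholds and up to 3 members per list, with further list members chosen after their values were seen. A few genes that this rule names are not reported here. Alternatives were the scanner signal, normexp background correction (offset 50, on median signals, since these files hold no mean signal), quantile normalization, other filters and thresholds, and leaving out each bone marrow array. Promoter windows and motif counts were computed with Python and RefSeq sequences, and 495 of 632 members had an entry.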

Additional observations from a re-analysis of the deposited data

Results flagged for a closer look

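The 23 opposite genes named in the report are listed because their fetal liver pair moved one way and both bone marrow pairs the other. The interaction (log2, fetal liver difference minus bone marrow difference) of those higher in the fetal liver knockout was: Cd14 4.07, Cd300lb 6.19, Cybb 3.51, Dmkn 5.21, Dnmt3l 3.71, Ifitm6 4.78, Ltf 4.72, Mmp8 6.06, Ngp 3.61, Sh2d1b1 4.82, Thbs1 4.75. For those lower in the fetal liver knockout it was: Ank3 -8.44, Arsk -4.11, Car2 -2.53, Fcer1a -4.99, Gfra2 -4.16, Gp1ba -2.56, Ica1l -4.61, Ifi202b -10.45, Klk1b22 -3.56, Mc3r -4.09, Slamf1 -3.92, Treml1 -2.67. Some of these rest on arrays not well above background, and with values raised to the lowest measurable level they were Ank3 -4.74, Cd300lb 4.97, Cybb 2.44, Dnmt3l 3.46, Fcer1a -3.46, Gfra2 -3.55, Ifi202b -6.45, Klk1b22 -3.02, Mmp8 4.02, Ngp 3.27, Sh2d1b1 3.56 and Slamf1 -2.80. The genes were chosen for this pattern, so the values are a description. None of the 23 passed the test of the difference in limma without a slide block, and 17 passed with it. The 6 that did not pass were Car2, Cybb, Dmkn, Gfra2, Klk1b22 and Ngp. With 1 or 2 arrays a group no single array could be tested as an outlier.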

How the results depend on the processing

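No gene passed the interaction test without a block, with the scanner signal, normexp, no filter, the strict filter, the floor, the mean over probes or a mean-variance trend. With the replicate block (the shared slide) 375 passed, with quantile normalization 89, and with the scanner signal without bone marrow wild type replicate 1, a setting chosen after seeing the data, 72. Leaving out 1 bone marrow array gave 0 to 293 (1 without wild type replicate 1, 222 without wild type replicate 2, 0 without knockout replicate 1 and 293 without knockout replicate 2). There the lone array is assumed to vary like the others.

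The opposite genes, 61 above, numbered 102 with the scanner signal, 32 with normexp, 116 with no filter, 29 with the strict filter, 19 at 3-fold and 70 to 103 with 1 array left out. The fetal liver only genes, 162 above, numbered 101, 47, 660, 103 and 76 under the same settings, 285 where the bone marrow pairs need not agree, 84 with the other tissue under 0.5, and 156 to 231 with 1 array left out. The bone marrow only genes, 409 above, numbered 777 with the scanner signal, 977 with no filter, 205 at 3-fold and 379 to 646 with 1 array left out (630 without wild type replicate 2, 646 without knockout replicate 1). The genes of the same direction, 257 above, numbered 72 with normexp, 143 with the strict filter and 93 at 3-fold.

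The correlation of the fetal liver difference with pair 1 was -0.0478 with the scanner signal and -0.119 with normexp, settings that use the differing scanner file. Of the named genes these settings turned the sign of the interaction for 7 and 11. The values with the scanner signal and with normexp were 1.27 and 1.90 for Alas2, 1.28 and 1.26 for Cstdc5, 0.79 and 1.29 for H2-Eb1, 1.08 and 1.30 for Hba-a1, 0.26 and 0.12 for Ly6a, 0.91 and 0.95 for Stfa1, and -1.32 and -1.33 for Trim28. With normexp alone they were -0.15 for Hcar2, 0.84 for Igll1, 0.10 for Rag1 and -0.047 for Sult1a1. The mean over probes gave 0.55 for Arsk and 0.43 for Zfp867. With 1 array left out Hcar2 ranged from -0.45 to 3.95, Ly6a from -1.52 to 0.92 and Trim28 from -0.22 to 0.31, and the scanner signal without wild type replicate 1 gave -0.45 for Hcar2 and 0.40 for Ly6a. The cause of these changes was not tested.

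The slide block leaves each interaction estimate as it was and changes only its error, so no sign could turn. It brought 47 of the named genes past the threshold. Signal over background limits the low genes, where bounds replace folds, and the counts of the 3 classes were highest with no filter on dim probes.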
